A study of Rattus norvegicus with 3 samples.

Results

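Interferon-response genes were examined in the soleus, a slow postural muscle of the rat hind limb, through 8 genes chosen by symbol: Ifit1, Ifit2, Ifit3, Mx1, Isg15, Irf1, Irf7 and B2m. Each was taken from probe sets annotated with exactly 1 symbol. All 8 were found, with 1 probe set each, among 14506 genes on the array, and all 8 passed the filter on dim genes that left 10154 genes to compare (mean of the 3 arrays at or above the 30th percentile, 5.72 on the log2 scale).

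The study used Affymetrix Rat Gene 1.0 ST arrays on rats aged 7 weeks, of a strain labelled Brown, with 6 rats in each of 3 groups. Group DN was denervated and irradiated, group TS was suspended by the tail and irradiated, and group Ct was irradiated only. The irradiation ran continuously over 2 weeks to 50 mSv in all 3 groups, so the controls carried it too and its own effect was not measured. The RNA was pooled by group and put on 1 array per pool, so no spread between animals is known and no test between groups could be made. The submitters' design mentions 2 arrays, and values of 3 are used here. How the muscle was denervated, on which side, and the sex of the rats are not given in the labels. In whole muscle, fewer cells of a type and less RNA per cell cannot be told apart.

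Interferons are secreted proteins that cells release when they sense viral or misplaced nucleic acid. Type I and type II interferons bind different receptors, whose Janus kinases activate STAT proteins. STAT complexes that contain IRF9 switch on genes through the interferon-stimulated response element, and STAT pairs do so through the gamma-activated site. The products block viral RNA and protein synthesis or raise the display of peptides on MHC class I molecules, and skeletal muscle fibres normally carry little class I on their surface.

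RefSeq promoter windows (GRCr8, from 250 bases before to 50 after the gene start) were matched for 5 of the 8 genes: Ifit3, Mx1, Irf1, Irf7 and B2m. No window was matched for Ifit1, Ifit2 and Isg15. The stretches around each match to the response element core (GAAA, a pair of any bases, GAAA), or to the gamma-activated site TTCNNNGAA, are shown on the strand of the gene so that B2m, which differed between the arrays, can be set beside members that differed little. Both motifs were searched on both strands, they did not overlap, and capitals mark the match.

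B2m, chr3:129549155-129549214, plus strand, response element core: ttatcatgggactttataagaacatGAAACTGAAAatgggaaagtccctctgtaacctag

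Ifit3, chr1:241527257-241527316, plus strand, response element core: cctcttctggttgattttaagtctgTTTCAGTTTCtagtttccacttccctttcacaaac

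Irf7, chr1:205800058-205800117, minus strand, response element core: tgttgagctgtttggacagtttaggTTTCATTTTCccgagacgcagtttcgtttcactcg

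Irf1, chr10:38417768-38417826, plus strand, gamma-activated site: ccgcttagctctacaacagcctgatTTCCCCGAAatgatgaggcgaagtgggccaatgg

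The match in B2m began 150 bases before the gene start and that in Ifit3 44 bases before it. Read 5′ to 3′ on its own strand, the Ifit3 match is GAAACTGAAA, the same 10 letters as in B2m, whereas that of Irf7, 69 bases before the start, is GAAAATGAAA. The response element core was present in 3 of the 5 windows and in 3.92% of all 33469 windows. The gamma-activated site was present in 1 of the 5, that of Irf1, at 142 bases before the start, and in 8.87% of all windows. In the Mx1 window neither run of letters was found. These are matches of letters, not measured binding sites. B2m and Ifit3 share the core, but Ifit3 read equal on all 3 arrays. Equal values can arise from the processing, so the patterns of both genes cannot be compared. Whether the motifs bear on the values was not tested.

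Among the 8 genes, 2 stood apart from the other 6 by their span across the 3 arrays. Ifit1 was far lower on the DN array than on both others, and B2m was highest on the DN array and lowest on the TS array. The remaining genes, including both transcription factors and the close relatives Ifit2 and Ifit3, each spanned at most 0.45 (log2) across the 3 arrays. At a limit of 1.5-fold (0.58 on the log2 scale), 1 of 8 was lower and none was higher in DN than in Ct, against 5.53% of all compared genes lower and 4.93% higher. In TS against Ct, 1 of 8 was lower and none was higher, against 2.68% and 5.89% of all genes. With 8 genes, a count of 1 is not a result about the group.

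**Figure D1:**
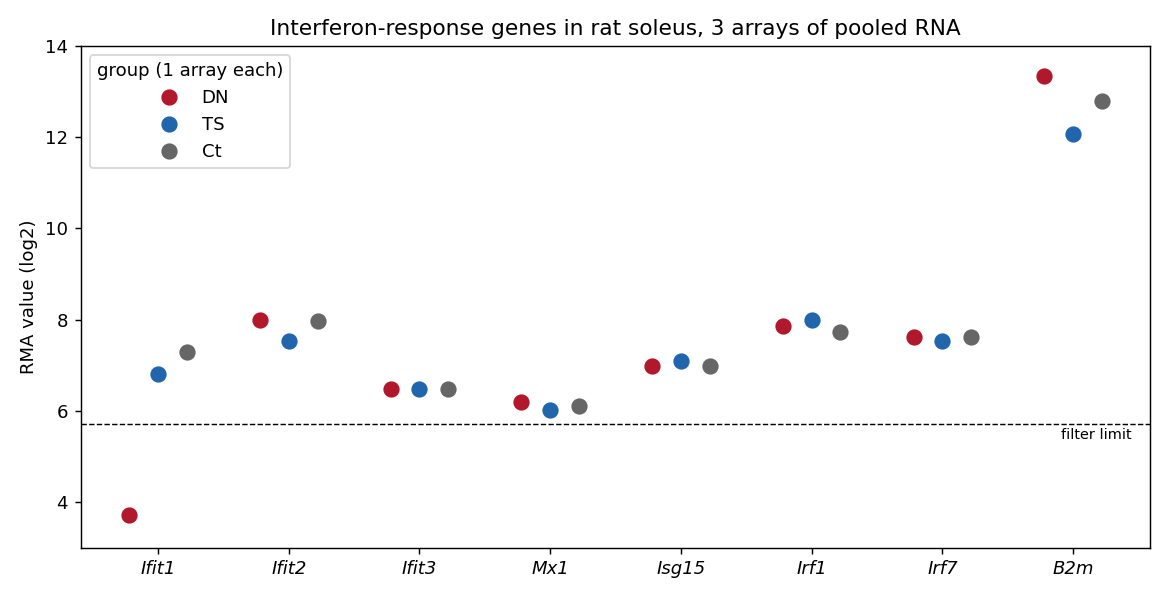
RMA values (log2, vertical axis) of the 8 genes, one point per array of pooled RNA for DN, TS and Ct. Ifit1 on the DN array reads 3.71, below the filter limit of 5.72 (dashed line), and the 3 B2m points spread from 12.06 to 13.34.

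Ifit1 encodes a protein with tetratricopeptide repeats that binds viral RNA bearing a foreign 5′ end and keeps it from being translated. It read 3.71 (log2) on the DN array, against 7.28 on Ct, and 6.82 on the TS array, against the same Ct value. The DN value is the lowest, and the TS value lies nearer to Ct than to DN. The differences were -3.57 for DN minus Ct, 11.9-fold lower, and -0.46 for TS minus Ct, 1.38-fold lower. Set directly against TS, DN was lower by 8.62-fold (-3.11).

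The size of the Ifit1 difference is uncertain, because the gene passed the filter only through its TS and Ct values. Its DN value is below the limit, as are those of 14 of the 227 genes (2.24% of all compared) at least 2-fold lower in DN, Ifit1 included. When 32 was added on the linear scale before taking logs, DN minus Ct for Ifit1 became -2.06. The gene has 1 probe set, so no second one could be set beside it. In the GRCr8 annotation, used here for gene order only, the Ifit genes lie together on chromosome 1 in the order Ifit2, Ifit3, Ifit1bl and Ifit1, and the span of Ifit1bl, a close relative, includes that of Ifit1. No probe set carried the identifier of Ifit1bl, and whether the 2 genes share signal was not tested.

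The low DN value of Ifit1 was not shared by its neighbour Ifit2, and the equal values of Ifit3 cannot settle whether Ifit3 shared it. Ifit2, a related repeat protein that also restrains viral translation, read 7.99 in DN against 7.98 in Ct, a difference of 0.015. In TS it read 7.54, a difference of -0.44, so that TS held the lowest value, 1.35-fold below Ct. In TS minus Ct, Ifit2, Ifit1 (-0.46) and B2m (-0.74) lay below the 5th percentile of all genes (-0.40). In DN minus TS, Ifit2 (0.45) lay just above the 95th percentile (0.44). Ifit3, whose human form binds and stabilises IFIT1, read 6.47 on all 3 arrays. Exactly equal values arise from the median polish by which probes of a set are summarised, and 2079 of 10154 genes (20.5%) were equal on all 3 arrays. The equal Ifit3 values therefore do not show that the gene did not differ.

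The other antiviral effectors differed little. Mx1, a dynamin-like GTPase that traps viral nucleocapsids, read 6.19 in DN, 6.01 in TS and 6.11 in Ct, for differences of 0.08 (DN minus Ct) and -0.10 (TS minus Ct). All 3 values lie close above the filter limit, the DN value highest and the TS value lowest. Isg15, a ubiquitin-like modifier that is joined to viral and host proteins, read 6.99 in DN and in Ct and 7.09 in TS. Its TS minus Ct difference of 0.10 is smaller than the shift of 0.13 that separates the medians of the TS and Ct arrays over the compared genes, and its sign turned with each array centred on its median (-0.03) and with quantile normalization (-0.01).

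The transcription factors also lay close together. Irf1, an activator induced through the gamma-activated site and a driver of MHC class I genes, read 7.86 in DN, 7.99 in TS and 7.74 in Ct. It was the only one of the 8 genes that was above Ct on both other arrays, by 0.13 in DN and by 0.25 in TS, and 35.8% and 30.8% of all genes had differences at least as large in either direction. Irf7, the factor that amplifies type I interferon production, read 7.62 in DN and in Ct and 7.53 in TS, a TS minus Ct difference of -0.09. DN minus TS was -0.13 for Irf1, a sign that turned under quantile normalization (0.0038), and 0.09 for Irf7.

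B2m encodes beta-2-microglobulin, the invariant light chain that every classical MHC class I molecule needs to reach the cell surface. It read 13.34 (log2) in DN, against 12.80 in Ct, and 12.06 in TS, against the same Ct value. DN is thus above Ct and TS below it. The difference of DN minus Ct was 0.54, 1.45-fold and short of the 1.5-fold limit, and that of TS minus Ct was -0.74, 1.67-fold lower. Set directly against each other, DN was 2.42-fold above TS (1.28), and 83 of 10154 genes had a higher DN minus TS difference. At the 1.5-fold limit, B2m was the 1 higher gene of the 8 in DN against TS and Ifit1 the 1 lower gene, against 3.20% and 5.93% of all genes. The highest value on any array was 13.99, near which differences can be compressed.

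For scale, 401 genes were measured by at least 1 more probe set above the limit, and the DN minus Ct differences of the 2 disagreed by a median of 0.03, with a 95th percentile of 0.33. Ifit1 and B2m were the only ones of the 8 past that percentile in DN minus Ct, as were 18.7% of all genes. Here and in DN minus TS, Ifit1 rests on a DN value below the filter limit. The probe sets behind the percentiles had means at or above that limit, so they are an uncertain scale for Ifit1. For TS minus Ct the 95th percentile was 0.73, and B2m alone of the 8 passed it, barely, as did 5.13% of all genes. For DN minus TS it was 0.76, and Ifit1 and B2m passed it, as did 5.36% of all genes. In DN minus Ct, 6 of the 8 genes differed by less than 0.2, compared with 72.1% of all genes, and in TS minus Ct 4 of 8, compared with 62.5%. The medians of the 8 differences were 0.01 for DN minus Ct, where the median of all genes was 0.00, and -0.10 for TS minus Ct, where it was 0.02.

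**Figure D2:**
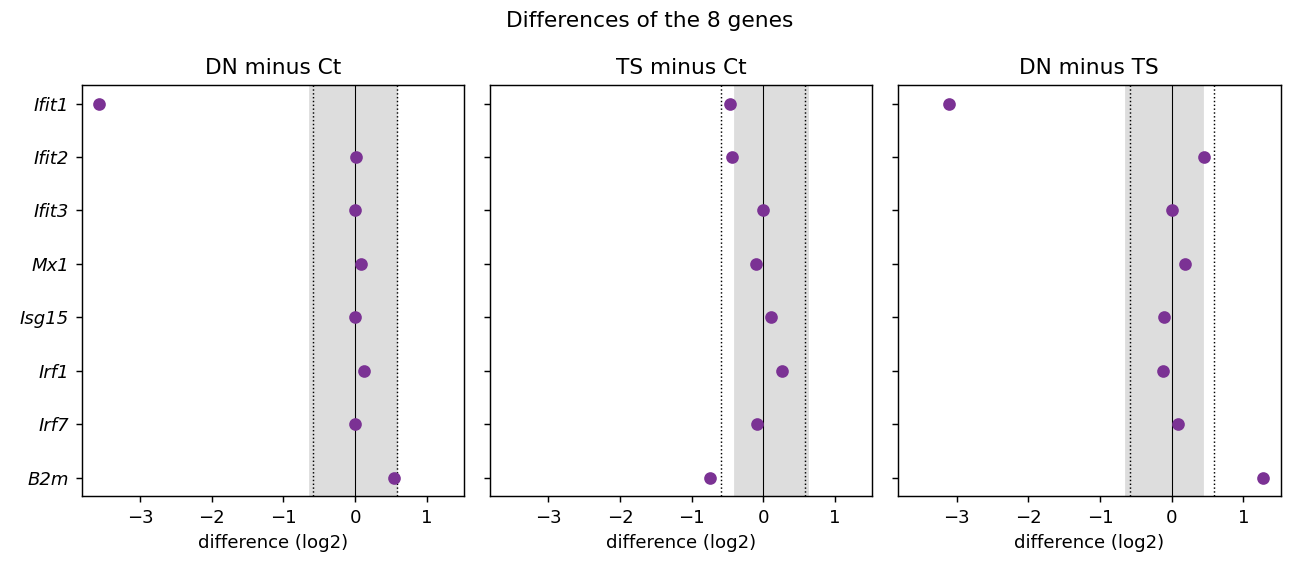
Differences (log2, horizontal axis) of the 8 genes in the 3 comparisons (DN minus Ct, then TS minus Ct, then DN minus TS), with the 5th to 95th percentile of all 10154 compared genes in grey and the 1.5-fold limits dotted. Ifit1 lies at -3.57 in DN minus Ct and -3.11 in DN minus TS, and B2m at 1.28 in DN minus TS. DN minus Ct and TS minus Ct share the Ct array.

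Genes whose pair of differences from Ct lay nearest to that of Ifit1 were sought over the 3 arrays by Euclidean distance in log2 units. The nearest was Scn4b, a sodium channel subunit, at a distance of 0.42, with DN minus Ct at -3.99 and TS minus Ct at -0.50. Itgb1bp2, which encodes the muscle protein melusin, followed at 0.54, and Zfp474 at 0.57. These distances rest on the DN value of Ifit1 below the filter limit. For B2m the 3 nearest were Ogn, a small proteoglycan of the matrix, at 0.04, the transcription factor gene Egr2 at 0.09 and Rab5a, a GTPase of early endosomes, at 0.18. Genes with DN minus Ct at least as high and TS minus Ct at least as low as B2m numbered 7 of 10154, B2m included, and genes with DN minus Ct at least as low as Ifit1 also numbered 7, Ifit1 included.

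The other genes of the pathway were taken from 10 lists holding 178 symbols. Of these, 138 were on the array with 1 symbol and 120 passed the filter, and 40 of the 120 were equal on all 3 arrays. In DN against Ct 7 of the 120 were at least 1.5-fold higher and 3 lower, or 5.83% and 2.5%, and in TS 9 were higher and 2 lower, or 7.5% and 1.67%. Over all genes the shares were 4.93% and 5.53% in DN and 5.89% and 2.68% in TS. With the arrays centred, 4 of the 120 were higher and 3 lower in TS (3.33% and 2.5%), against 3.52% and 3.94% of all genes. The median difference of the 120 was 0.00 in both, where many values were equal. In DN minus Ct 51 of the 120 (42.5%) were above 0 and 10 (8.33%) below, against 32.8% and 24.3% of all genes. In TS minus Ct the shares were 44.2% and 20%, against 52.6% and 22.7%. Set directly against TS, 6 were at least 1.5-fold higher in DN and 6 lower (5% each), against 3.20% and 5.93%. The counts past 1.5-fold from Ct lie near the background, while the signs in DN lean more to higher values than those of all genes. A few single genes stood apart.

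Of 11 interferon genes listed, 5 were found on the array with 1 symbol (Ifna4, Ifna5, Ifnb1, Ifng and Ifnk). All 5 were too dim to pass the filter, and the others were not measured here. Ifnb1, the first type I interferon made by many cells, read 4.25 on all 3 arrays, and Ifng, the type II interferon of lymphocytes, 4.91 on all 3. The receptor chains were well above the limit and differed little. Ifnar1, a chain of the type I receptor, read 8.83 in DN, 8.68 in TS and 8.79 in Ct, and none of the 4 receptor genes compared was past 1.5-fold.

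Of the 4 kinase and STAT genes compared, Jak2 stood apart. Jak2, the kinase of the interferon gamma receptor and of many cytokine and hormone receptors, read 10.28 in DN and 9.82 in TS, against 8.81 in Ct. Both arrays lie above Ct, with differences of 1.47 (2.78-fold) in DN and 1.01 (2.01-fold) in TS. Stat3, which serves mainly interleukin-6 type cytokines, was 0.44 above Ct in DN and 0.39 in TS, both short of 1.5-fold. Stat2 was equal on all 3 arrays at 8.22, as was its partner Irf9 at 8.31. The list of other interferon regulatory factors had 6 genes compared, Irf9 and the binding protein gene Irf2bp1 included. Its largest difference was that of Irf8, a factor of myeloid cells, at 7.09 in DN and in TS against 6.61 in Ct.

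Of 41 further interferon-stimulated effectors compared, 2 were at least 1.5-fold higher in DN and 1 was lower, and 26 were equal in DN and Ct. Tor3a, an ATPase of the endoplasmic reticulum, was higher by 0.82 and Ifitm1, a membrane protein that blocks entry of viruses, by 0.68. The lower gene was Oas1k, of the oligoadenylate synthetase family, which read 7.06 in DN and 8.22 in TS, against 8.36 in Ct. Like Ifit1, Oas1k was lowest on the DN array (DN minus Ct -1.30, TS minus Ct -0.15), though Ifit1 stood further below Ct in TS (-0.46). Oas1a, a relative of Oas1k, stood at -0.09 in DN minus Ct and at -0.32 in TS minus Ct. In TS, Lgals3bp (0.68) and Ifitm1 (0.66) were past 1.5-fold, and neither was with the arrays centred. Probes of the oligoadenylate synthetases and of the Ifitm genes may share signal with close copies.

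The genes induced chiefly by interferon gamma were close to Ct as well. Of 7 compared, none was past 1.5-fold in DN and 1 was in TS, Ifi47 of the immunity-related GTPases, at 0.61, which became 0.47 with the arrays centred. The chemokine gene Cxcl9 stood at 0.49 in DN minus Ct and 0.15 in TS minus Ct. Gbp5, a guanylate-binding protein, followed the order of B2m, reading 7.81 in DN and 7.11 in TS, against 7.55 in Ct.

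Among 12 sensors and adaptors, Mavs had the largest difference. Mavs, the mitochondrial adaptor through which the cytosolic RNA sensors signal, read 8.41 in DN and 9.19 in TS, against 10.78 in Ct. Both arrays lie below Ct, by 5.18-fold in DN (-2.37) and 3.01-fold in TS (-1.59), and it was the only gene of this list that was at least 1.5-fold lower in either. Of the RNA sensors that act through it, Ifih1 differed little, reading 7.97 in DN, 8.02 in TS and 7.96 in Ct. The gene of RIG-I, listed as Rig1, read 7.51 on all 3 arrays, and such equal values do not show that it did not differ. Tlr7, an endosomal sensor of single-stranded RNA found in myeloid cells, read 6.91 in DN and 7.68 in TS, against 6.54 in Ct, and was past 1.5-fold in TS alone (1.14), as was the adaptor gene Traf3 (0.79).

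Of 10 restraints of the pathway, Socs3 alone was past 1.5-fold of Ct. Socs3, an inhibitor of Janus kinases induced by cytokines, read 7.98 in DN and 9.28 in TS, against 6.99 in Ct, or 1.98-fold and 4.91-fold higher. Usp18, which removes Isg15 from proteins and blocks the type I receptor, read 6.64 in DN and 6.01 in TS, against 6.51 in Ct. Its TS minus Ct difference of -0.51 was short of 1.5-fold as deposited and became -0.64 with the arrays centred. Socs1 was equal on all 3 arrays at 7.01.

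**Figure D3:**
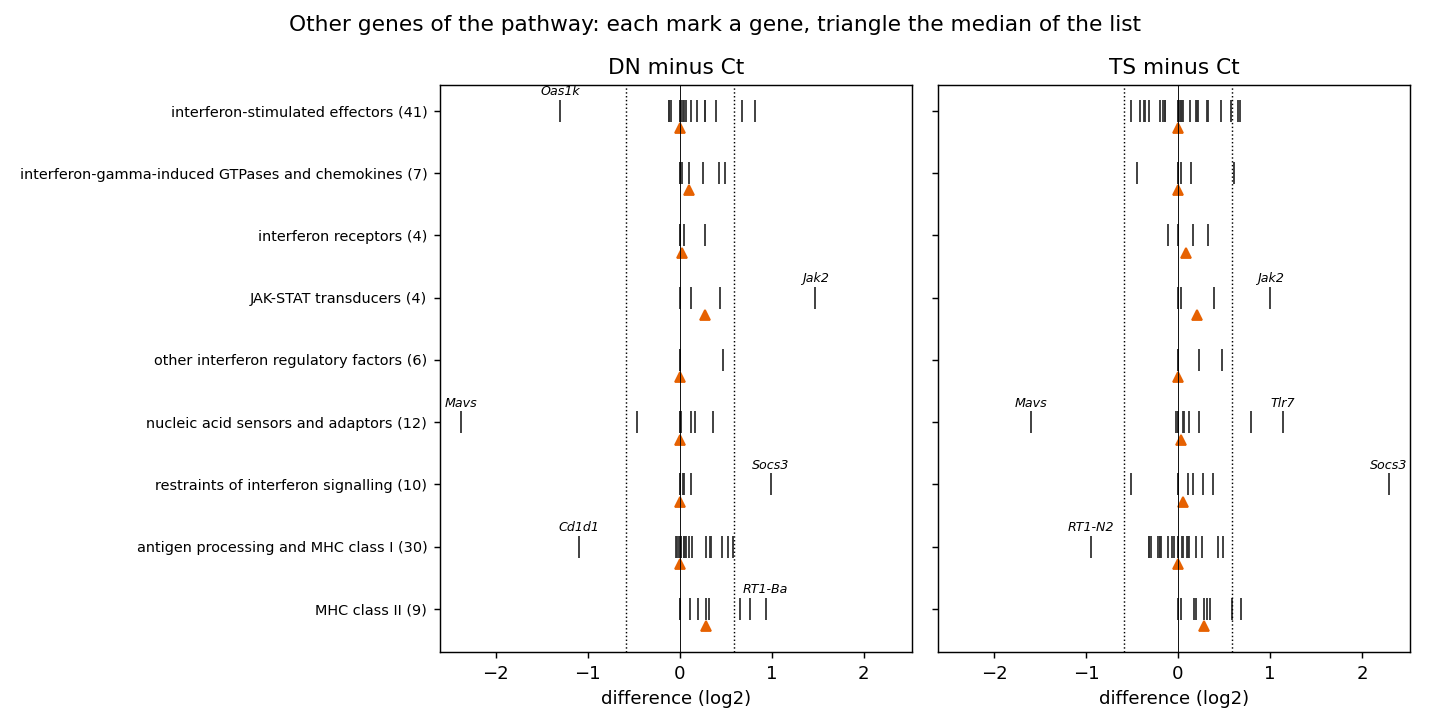
Differences from Ct (log2, horizontal axis) of other pathway genes by list, DN minus Ct at left and TS minus Ct at right, with each mark a gene, triangles the list medians, dotted lines the 1.5-fold limits and the number compared in brackets. Mavs (-2.37 and -1.59) and Jak2 (1.47 and 1.01) lie to the same side in both panels, and most marks lie near 0. Genes with differences of at least 0.9 in size are named, and Usp18, Zbp1 and Irf2 sit on 2 lists each.

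B2m pairs with the class I heavy chains, which in the rat are among the RT1 genes, and 13 RT1 class I genes passed the filter. The list also held RT1-A1, RT1-A2 and RT1-A3, which were not found with 1 symbol and are not covered here. None was past 1.5-fold in DN against Ct, and in TS 1 was lower, RT1-N2, which read 7.51 in DN and 6.57 in TS, against 7.52 in Ct. Set directly, 8 of the 13 read higher in DN than in TS, 5 were equal and none read lower, with a median of 0.17 (log2). Of all 10154 genes, 23.3% read higher in DN than in TS, 26.3% were equal and 50.3% read lower. Of the 13 RT1 genes, 3 passed 1.5-fold in DN against TS as B2m did, against 3.20% of all genes: RT1-N2 (0.94), RT1-CE5 (0.82) and RT1-CE3 (0.65). RT1-CE5 read 7.33 in DN and 6.51 in TS, against 6.81 in Ct, the same order of arrays as B2m. RT1 genes are near-identical copies whose probes may share signal, so the 13 are not independent, and these were grouped by symbol after their values were seen. Centring the arrays adds 0.13 to every DN minus TS difference.

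The 2 probe sets of RT1-CE7 both read higher in DN than in TS and differed in where Ct lay. The brighter stood at 0.34 in DN and at -0.11 in TS relative to Ct, and the other at 0.00 and -0.70. Genes of class I processing and loading had small differences in most cases. Tap1, a subunit of the peptide transporter, stood at 0.14 in DN minus Ct and 0.20 in TS minus Ct, and the immunoproteasome subunits Psmb9 at 0.05 and 0.09 and Psmb8 at 0.00 in both. The tapasin-related Tapbpl had the order of B2m, at 0.29 in DN minus Ct and -0.20 in TS minus Ct, as did Pdia3 (0.07 and -0.31) and Psme1 (0.10 and -0.06), with smaller differences. In the whole list of 30 genes of class I and its processing, none was higher and 1 was lower past 1.5-fold in DN, Cd1d1, which presents lipids (7.88 in DN and 8.78 in TS, against 8.98 in Ct). The list median was 0.01 in DN minus Ct and 0.00 in TS minus Ct. Nlrc5 was not analysed here.

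**Figure D4:**
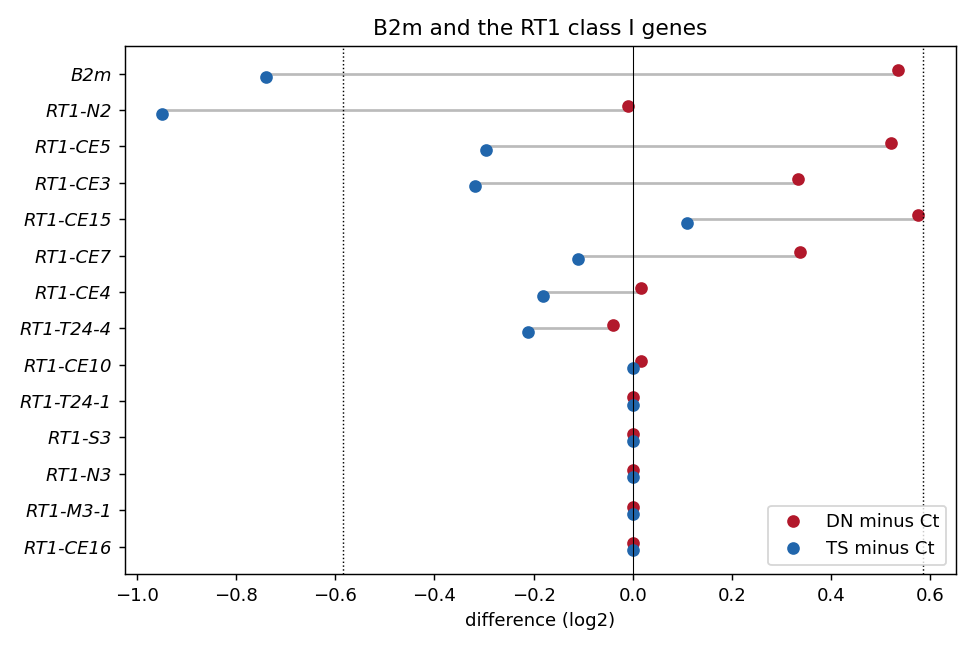
Differences from Ct (log2, horizontal axis) of B2m and the 13 compared RT1 class I genes, DN minus Ct in red and TS minus Ct in blue, joined by a line, with 1.5-fold limits dotted. In B2m and 8 RT1 genes the DN point lies to the right of the TS point, and in 5 both lie at 0.

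MHC class II genes, which dendritic cells, macrophages and B cells express and interferon gamma induces, had the highest median among the lists in DN minus Ct. The median of the 9 compared was 0.28 in DN minus Ct and 0.28 in TS minus Ct, next to 0.28 and 0.21 for the 4 kinase and STAT genes. At least 1.5-fold higher were RT1-Ba (0.93), the invariant chain gene Cd74 (0.76) and RT1-Da (0.66) in DN, and RT1-Ba (0.69) and RT1-Bb (0.59) in TS. With the arrays centred, both TS differences were under 1.5-fold. None of the 9 was lower past the limit.

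Markers of other cells also differed between the arrays. Of 11 macrophage markers, none was at least 1.5-fold higher in DN and 5 were in TS (3 with the arrays centred). The shares of all genes were 4.93% in DN and 5.89% in TS (3.52% centred). The summed linear level of these markers was 6218 in DN and 8296 in TS, against 5520 in Ct. Leukocyte markers summed to 2608 in DN and 3033 in TS, against 2321 in Ct. Endothelial markers summed to 5282 in DN and 5786 in TS, against 6741 in Ct. Of 14 lymphocyte and natural killer cell markers, 3 passed the filter and none of these was past 1.5-fold. All 6 neutrophil markers lay below the filter, including S100a8 at 4.02 on all 3 arrays. Skeletal muscle markers, most of them of slow fibres, check the labelled tissue and were bright in all 10 cases, from 11.21 to 13.99. Of these 10, 4 were at least 1.5-fold lower in DN and 1 in TS, against 5.53% and 2.68% of all genes. The part of these markers in the values of Ifit1, B2m and the class II genes was not tested.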

How the data were processed

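Total RNA of soleus was pooled per group and measured on 1 array each for DN, TS and Ct. The deposited log2 values were made by RMA in Affymetrix Expression Console in a core-exon analysis, per the labels' descriptions and the submitters' processing notes; the log base is not stated and was read as 2 from the range of 1.77 to 13.99. No version of the tool and no build is given in the sources used here. RMA brings the arrays to a common distribution and can leave equal values.

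Of 29170 probe sets, 15310 had 1 gene symbol in the platform annotation and were used, 323 had several and 13537 none. The brightest probe set stood for a gene. Gene identifiers of 15279 were found in the GRCr8 table and no symbol changed. Differences of log2 values were taken; no p-value can be had from 1 array per group, and the number of arrays limits the precision. Calls used 1.5-fold. The 8 genes, the 10 pathway lists and the 6 marker lists were chosen with earlier results of these data known. Named were the 8 genes, up to 4 genes per list with the largest difference from Ct, a fixed set (Stat2, Irf9, Ifnar1, Tap1, Psmb8, Psmb9, Nlrc5, Usp18 and the RIG-I gene; a further one is not reported here) and the 3 nearest in pattern to Ifit1 and to B2m. Other genes named were chosen after their values were seen. Alternatives were centring, loess (span 0.3), quantile normalization, an offset of 32, other filters, mean probe sets, a 2-fold limit and leaving out equal values. The steps were tested on simulated data. Python 3.11.15, numpy 2.4.6, pandas 2.3.3, statsmodels 0.14.6 and matplotlib 3.10.9 were used.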

Additional observations from a re-analysis of the deposited data

How the results depend on the processing

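No paired analysis was possible because each group had 1 array and the labels carry no replicate numbers. Leaving out a replicate was likewise not possible. Ifit1 stayed between -3.59 and -2.06 in DN minus Ct and between -3.13 and -1.68 in DN minus TS, and B2m between 1.27 and 1.40 in DN minus TS, over the alternatives in which they were measured. With each array centred, 2 of the 8 genes instead of 1 were at least 1.5-fold lower in TS than in Ct, as Ifit1 reached -0.60, and the median of the 8 became -0.23 in TS minus Ct and 0.17 in DN minus TS. Quantile normalization took B2m to 0.61 in DN minus Ct, so that 1 gene was higher past the limit. A filter at the 50th percentile removed Ifit1, Ifit3, Mx1 and Isg15. This left 0 genes lower in DN than in Ct and 0 lower in DN than in TS. The medians, now of Ifit2, Irf1, Irf7 and B2m only, were 0.071 for DN minus Ct, -0.26 in TS against Ct and 0.27 in DN against TS. Of 120 other pathway genes, 4 instead of 9 were higher in TS with the arrays centred (3.33% instead of 7.5%). Of all genes, 3.52% instead of 5.89% were. Set directly, 10 instead of 6 of the 120 were higher in DN than in TS (8.33% instead of 5%). Of all genes, 4.63% instead of 3.20% were. At a 2-fold limit 0 genes were lower in TS than in Ct. Leaving out equal values gave a median of 0.081 in DN minus Ct. A median counted as moved when it changed by at least the median disagreement between 2 probe sets of a gene. Of 199 values of single members under the alternatives, 196 kept their side of the limit, 2 passed it and 1 no longer did. No called gene changed sign. Spread between animals is unknown for every value.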
